A study of Saccharomyces cerevisiae with 12 samples.

Results

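The comparison described here is that of the *tup1* deletion mutant with the wt strain, across all genes of *Saccharomyces cerevisiae* named in the deposited count tables. It rests on the 6 libraries of these strains, 3 per strain, of the 12 libraries in the series, and on 6400 named genes. Both strains were BY4741, a haploid laboratory strain of mating type **a** that lacks *LEU2*, *URA3* and *MET17* and carries a defective *HIS3*. The wt cells carried no further deletion, and in the mutant (*tup1*::KAN) a KAN cassette replaced *TUP1*. The *cyc8* mutant (*cyc8*::KAN) and the double mutant (*tup1*::KAN, *cyc8*::URA3), 3 libraries each in the same background, are used only where the *tup1* strain is compared with them. All cultures were sampled in log phase at an OD600 between 0.6 and 0.8 in YPD, a rich medium, with 2% glucose, and total RNA was sequenced after depletion of rRNA by a strand-specific method. The labels call the 3 libraries of a strain biological replicates, and nothing in them says whether a strain was 1 clone or several.

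Tup1p and Cyc8p form a co-repressor complex that does not bind DNA by itself. It is brought to promoters by sequence-specific DNA-binding proteins such as Mig1p (glucose repression), Rox1p (aerobic repression of hypoxic genes), Rfx1p, also called Crt1p (DNA damage genes), Sko1p (osmotic stress genes), Nrg1p and the pair of alpha2 and Mcm1p (**a**-specific genes in alpha cells). In glucose-grown cells the complex keeps genes for flocculation, for the use of other sugars and for several stress responses at low levels. The alpha2 protein is not made in **a** cells such as those used here.

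In total 5927 genes passed the filter on low counts and were tested, and 431 were upregulated and 85 downregulated in *tup1*, with a limit of 1 on the absolute log2 fold change and of 0.01 on the adjusted p. These are 7.27% and 1.43% of the tested genes, the background against which each count of list members is given. Upregulated genes made up 83.5% of the called genes. Their median log2 fold change was 2.15, and 127 of them rose by at least 3 on the log2 scale, while the median of the downregulated genes was -1.67. The upregulated genes took up 1.63% to 2.12% of the counts on named genes in the wt libraries and 8.79% to 9.01% in the *tup1* libraries. The downregulated genes took up 1.10% to 1.21% in wt and 0.315% to 0.339% in *tup1*. Genes that were weakly expressed in wt were common among the upregulated genes, since 220 of the 431 (51.0%) had a wt mean under 10 CPM (read counts relative to the library size, scaled by TMM), against 16.1% of all tested genes. Of the upregulated genes, 38 lay below the filter's level of 0.65 CPM in at least 1 wt library, so they entered the test through their *tup1* libraries. RNA was taken from whole cultures, in which fewer cells of a kind and less RNA per cell cannot be told apart. Whether the counting used the strand is not given in the sources used here, and 10 upregulated genes overlap a gene on the opposite strand.

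**Figure D1:**
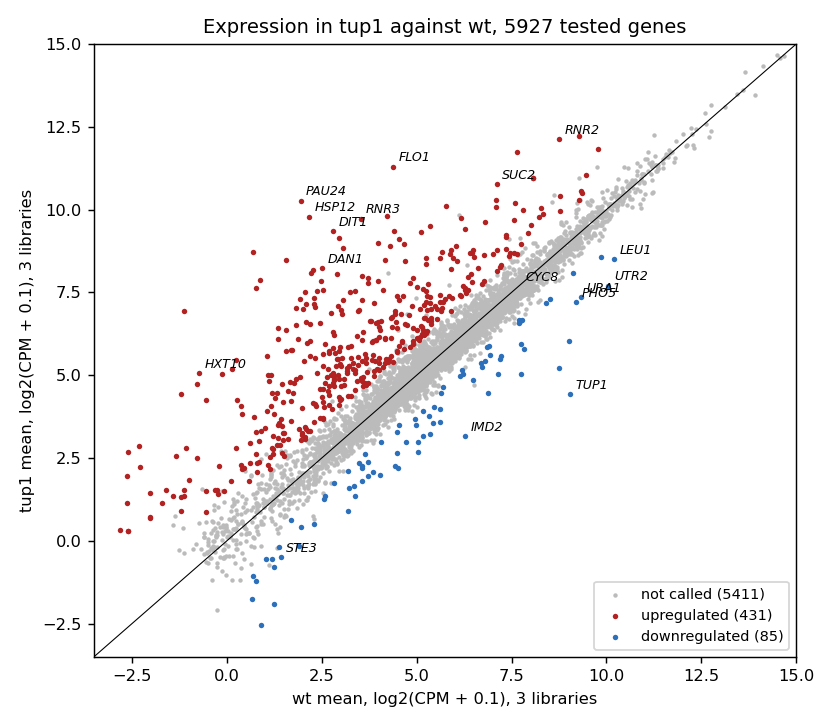
Mean expression of each tested gene in *tup1* (vertical axis) against wt (horizontal axis), both as log2(CPM + 0.1) over 3 libraries, with the line of equal values. The 431 upregulated genes (red) spread far above the line and mostly start from low wt levels, and the 85 downregulated genes (blue) lie closer to it.

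*TUP1* itself had 534, 514 and 541 CPM in the wt libraries and 22.3, 23.4 and 18.8 CPM in the *tup1* libraries (log2 fold change -4.62 ± 0.13 SE, adjusted p = 1.1e-07), so the deleted gene was low in every library labelled *tup1*, although 285 to 346 reads per *tup1* library were still counted on it. *CYC8*, the partner gene, had 225, 205 and 209 CPM in wt and 232, 213 and 174 CPM in *tup1*, and the strains overlapped (log2 fold change -0.05 ± 0.12 SE, adjusted p = 0.82). *LEU2* and *MET17* had 0 counts in each of the 6 libraries and *URA3* at most 1. The **a**-specific genes were expressed in both strains. For example *STE2*, the receptor for alpha factor, had 536, 607 and 553 CPM in wt and 593, 602 and 659 CPM in *tup1* (log2 fold change 0.13 ± 0.1 SE, adjusted p = 0.39). Of the 7 **a**-specific genes 0 passed both the fold and the p limit in either direction, and their log2 fold changes ran from -0.6 to 0.7. The counts on named genes summed to between 12878893 and 17898833 in a *tup1* library and to between 14854146 and 15520064 in a wt library. The third wt library stood apart from the other two: 109 and 130 genes differed 2-fold or more between it and wt 1 and wt 2 on the log2(CPM + 1) scale, against 8 between wt 1 and wt 2 and 18 to 61 between the *tup1* libraries. It was at least 2-fold above both other wt libraries for 49 genes, of which 18 were upregulated in *tup1*. It was at least 2-fold below both for 37 genes, of which 9 were upregulated in *tup1*. The former include glucose-repressed and stress genes (*HXT7*, *HXK1*, *HSP12*, *GPH1*), and the latter iron and zinc uptake genes (*FIT2*, *ARN2*, *ZRT1*). Counts of list members that moved by over 1.5 times without it are given beside the lists, and total calls without it in the section on processing. Its part in the shares of upstream sites and of genes near chromosome ends was not tested, nor was the reason it stood apart.

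Upstream sequences are shown for 6 de-repressed genes with well-known sites of sequence-specific factors, so that the sites can be read next to the values. They were read from the R64 genome, in the direction of the gene, and capitals mark the letters searched for on either strand. In *RNR3* (chrIX:240949-240998, minus strand) and *RNR2* (chrX:391954-392003, plus strand) the capitals mark GTTGCCATG, one side of the X box bound by Rfx1p, found once in the 500 bases upstream of each (as its reverse complement in *RNR2*).
RNR3: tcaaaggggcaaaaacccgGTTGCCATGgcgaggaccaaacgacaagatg
RNR2: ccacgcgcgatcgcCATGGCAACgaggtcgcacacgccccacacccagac
In *HSP12* (chrVI:106816-107075, plus strand) they mark AGGGG, the stress response element bound by Msn2p and Msn4p, found 5 times in 500 bases.
HSP12: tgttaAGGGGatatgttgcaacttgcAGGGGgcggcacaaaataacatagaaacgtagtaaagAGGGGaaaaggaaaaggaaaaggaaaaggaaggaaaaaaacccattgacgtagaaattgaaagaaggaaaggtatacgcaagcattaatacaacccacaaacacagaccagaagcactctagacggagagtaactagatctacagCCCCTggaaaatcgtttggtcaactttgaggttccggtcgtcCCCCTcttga
In *ANB1* (chrX:525582-525701, minus strand) they mark ATTGTTC, the core of the Rox1p operator, found 3 times.
ANB1: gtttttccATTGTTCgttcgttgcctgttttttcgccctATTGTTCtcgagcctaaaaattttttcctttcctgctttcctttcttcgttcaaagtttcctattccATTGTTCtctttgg
In *SUC2* (chrIX:36965-37004, plus strand) they mark GTGGGG, a Mig1p-type site (here as its reverse complement), and in *GAP1* (chrXI:514713-514832, plus strand) GATAAG, the site of the GATA factors of nitrogen regulation, found 4 times in 500 bases, with 3 in the stretch shown.
SUC2: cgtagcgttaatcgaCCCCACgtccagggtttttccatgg
GAP1: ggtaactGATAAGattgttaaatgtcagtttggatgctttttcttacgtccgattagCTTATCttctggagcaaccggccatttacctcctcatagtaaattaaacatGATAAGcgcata
Among the 5758 tested protein-coding genes with a full window of 500 bases, AGGGG occurred upstream of 55.7% of the upregulated genes, 23.8% of the downregulated genes and 34.5% of all tested genes. GCGGGG and GTGGGG, both Mig1p-type sites, occurred upstream of 13.8% and 17.9% of the upregulated genes, against 5.78% and 8.56% of all tested genes. A run of G can hold AGGGG and a Mig1p-type site that overlap. The shares for ATTGTTC were 11% among upregulated and 12% among all tested genes, and those for GATAAG 24% and 22.7%. GTTGCCATG was rare, with 3 upregulated genes of 22 genes in all. The other sites searched, ATGACGT (Sko1p-type), TTACTAA (Yap-type), TCGTTTAG (the AR1 site of *DAN* and *TIR* genes) and CACGTG (Pho4p-type), occurred upstream of 7.46%, 12.1%, 3.03% and 4.43% of the upregulated genes and of 4.05%, 11.9%, 1.74% and 6.23% of all tested genes. Their shares among the downregulated genes were 9.52%, 7.14%, 2.38% and 10.7%, so that ATGACGT and CACGTG were more frequent there than among the upregulated genes. These 2 shares rest on 8 and 9 of 84 genes. The downregulated genes include 35 *gag-pol* genes of Ty elements, which are repeated copies. ATGACGT occurred upstream of 4 and CACGTG of 1 of the 30 Ty1 *gag-pol* genes. The Mig1p-type sites GCGGGG and GTGGGG occurred upstream of 1.19% and 4.76% of the downregulated genes, the Rox1p-type site of 13.1% and the GATA site of 22.6%. Within the lists described below, GTTGCCATG occurred upstream of 2 of 13 DNA damage genes, *RNR3* and *RNR2*, and so not of *RNR4* or *HUG1*. ATTGTTC occurred upstream of 5 of 15 hypoxic genes and TCGTTTAG of 4 of 21 *PAU*, *DAN* and *TIR* genes. GATAAG occurred upstream of 22 of 26 nitrogen catabolite genes. These shares describe letters in a window, and the base composition and length of the regions were not matched.

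The largest rises by group were those of cell surface genes. The flocculins are lectin-like wall proteins that let cells adhere to one another, and 5 of 5 were upregulated, with a median log2 fold change of 4.22 beside a median of -0.03 over all tested genes. *FLO1*, the main flocculation gene, had 21.6, 24 and 16.3 CPM in wt and 2785, 2544 and 2181 CPM in *tup1* (log2 fold change 6.92 ± 0.2 SE, adjusted p = 1.2e-07). No *tup1* library came near a wt library. *FLO9* (log2 fold change 5.59 ± 0.16 SE, adjusted p = 1.1e-07), *FLO5* (log2 fold change 4.22 ± 0.17 SE, adjusted p = 4.6e-07), *FLO11* (log2 fold change 3.51 ± 0.24 SE, adjusted p = 1.5e-05), which serves adhesion and filamentous growth, and *FLO10* (log2 fold change 3.47 ± 0.2 SE, adjusted p = 4.7e-06) followed. All 5 genes are over 10% repeated, meaning that stretches of them occur elsewhere in the genome, and reads could be split between them. Together the list took 81.8 to 116 CPM in the wt libraries and 3841 to 4862 CPM in the *tup1* libraries.

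The seripauperins (*PAU*) and the *DAN* and *TIR* genes encode mannoproteins of the wall that are induced without oxygen or in the cold. Of 30 such genes 9 did not pass the filter on low counts, 21 were tested and 18 were upregulated, 7 of them below the filter's level in a wt library, so the share is given as a description only. *DAN1* had 7.35, 8.2 and 1.16 CPM in wt and 300, 314 and 289 CPM in *tup1* (log2 fold change 5.76 ± 0.53 SE, adjusted p = 7.9e-05). Its lowest value was in wt 3, yet every wt value was far below every *tup1* value. *TIR2* had 5.63, 4.79 and 3.61 CPM in wt and 350, 292 and 227 CPM in *tup1* (log2 fold change 5.95 ± 0.23 SE, adjusted p = 4.5e-07), and *TIR4*, *TIR3*, *TIR1* and *DAN4* rose by 4.97, 2.98, 2.88 and 2.75 on the log2 scale. *PAU24* had 4.73, 4.86 and 1.65 CPM in wt and 1208, 1190 and 1291 CPM in *tup1* (log2 fold change 8.36 ± 0.37 SE, adjusted p = 9.6e-07), and *PAU20* showed the largest fitted change of all (log2 fold change 8.39 ± 0.39 SE, adjusted p = 1.1e-06), but 18 of the 21 tested members carry repeated sequence and single *PAU* genes are uncertain. Over the whole list the summed level was 198 to 468 CPM in wt and 5145 to 6827 CPM in *tup1*.

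Among 25 other cell wall genes 6 were upregulated and 1 was downregulated (median 0.58). *SPI1*, a stress-induced wall protein, had 19.5, 29.1 and 27.3 CPM in wt and 490, 500 and 494 CPM in *tup1* (log2 fold change 4.29 ± 0.17 SE, adjusted p = 4.6e-07). *PIR3* (log2 fold change 5.05 ± 0.16 SE, adjusted p = 1.7e-07, 21% repeated), *TIP1* (log2 fold change 1.63 ± 0.24 SE, adjusted p = 0.00129) and *EXG1*, an exoglucanase (log2 fold change 1.57 ± 0.12 SE, adjusted p = 2.3e-05), rose as well. *CWP1* had 71.4, 54.7 and 278 CPM in wt and 1260, 1454 and 1054 CPM in *tup1* (log2 fold change 3.22 ± 0.58 SE, adjusted p = 0.00444), with the highest wt value in wt 3, and it remained past the limits in only 2 of the 6 leave-one-out fits (adjusted p up to 0.0205). *AGA1*, an anchor for agglutinin, was the member that fell (log2 fold change -1.19 ± 0.25 SE, adjusted p = 0.00964), and it missed the limits in 4 of these fits (adjusted p up to 0.052). None of the 11 genes for the separation of daughter cells was called by edgeR at these limits, and 1 was upregulated without wt 3. In this list *CTS1*, the chitinase of cell separation, had 1386, 1336 and 1526 CPM in wt and 2895, 2471 and 2167 CPM in *tup1* (log2 fold change 0.83 ± 0.13 SE, adjusted p = 0.00203), which stayed under the fold limit.

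Of 12 tested genes for sucrose, maltose and isomaltose 10 were upregulated and 0 downregulated (median 2.95), 6 of the 12 being repeated. *SUC2*, which encodes invertase, had 133, 140 and 139 CPM in wt and 1523, 1873 and 1803 CPM in *tup1* (log2 fold change 3.66 ± 0.12 SE, adjusted p = 2.1e-07), with little spread in either strain. The isomaltases *IMA5* (log2 fold change 4.15 ± 0.16 SE, adjusted p = 4.5e-07) and *IMA1* (log2 fold change 5.05 ± 0.17 SE, adjusted p = 2.0e-07, 15.1% repeated) rose more, and the maltases *MAL12* and *MAL32* rose by 5.5 and 5.03 on the log2 scale but are 89.7% repeated. Of 9 galactose genes 2 were upregulated, the inducer gene *GAL3* (log2 fold change 1.87 ± 0.16 SE, adjusted p = 4.6e-05) and *PGM2*, phosphoglucomutase (log2 fold change 2.32 ± 0.46 SE, adjusted p = 0.00695), and the latter held its call in 2 of the 6 leave-one-out fits.

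Of 19 hexose transporters and sensors 11 were upregulated and 0 downregulated (median 1.70). *HXT10* had 0.575, 0.378 and 0.551 CPM in wt and 45.9, 24.3 and 29.1 CPM in *tup1* (log2 fold change 6.02 ± 0.34 SE, adjusted p = 4.2e-06). Its wt values lay below the filter's level of 0.65 CPM, so it entered the test through its *tup1* libraries. *HXT4*, which encodes a high-affinity transporter, had 35.5, 21.3 and 107 CPM in wt and 1080, 993 and 1262 CPM in *tup1* (log2 fold change 4.35 ± 0.56 SE, adjusted p = 6.7e-04). It was highest in wt 3 among the wt libraries, though still far under each *tup1* library. *HXT15*, *HXT6*, *HXT17* and *HXT13* rose by 4.87, 4.72, 4.28 and 4.19, with near-identical copies elsewhere. *HXT7*, which is nearly identical to *HXT6*, showed 6.01, 2.33 and 48.4 CPM in wt and 243, 287 and 285 CPM in *tup1*, but did not pass the adjusted p limit (log2 fold change 3.84 ± 0.89 SE, adjusted p = 0.0151), with wt 3 again apart.

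The genes of gluconeogenesis and the glyoxylate cycle, which make glucose from ethanol and other non-sugar carbon, gave 9 of 18 upregulated and 1 downregulated (median 0.79). Without wt 3, 2 of them were downregulated. *PCK1*, the key enzyme of gluconeogenesis, had 6.2, 4.92 and 6.74 CPM in wt and 59.3, 46.8 and 78.7 CPM in *tup1* (log2 fold change 3.37 ± 0.22 SE, adjusted p = 9.1e-06). The activators *ADR1* (log2 fold change 2.77 ± 0.19 SE, adjusted p = 1.3e-05) and *CAT8* (log2 fold change 2.47 ± 0.18 SE, adjusted p = 2.0e-05) and the lactate transporter *JEN1* (log2 fold change 1.81 ± 0.1 SE, adjusted p = 3.9e-06) rose too. *CIT2*, the peroxisomal citrate synthase, fell (log2 fold change -1.32 ± 0.15 SE, adjusted p = 3.1e-04), from 101, 118 and 89.8 CPM to 35.1, 40.5 and 48.1 CPM. In the list of 17 genes for peroxisomal fatty acid oxidation and carnitine transport only *CRC1*, a carnitine carrier of mitochondria, was called (log2 fold change 2.59 ± 0.27 SE, adjusted p = 1.8e-04).

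Among 20 glycolytic genes 5 were upregulated, and these were minor or regulated isozymes. *TDH1*, a glyceraldehyde-3-phosphate dehydrogenase, had 137, 145 and 316 CPM in wt and 3193, 3363 and 3747 CPM in *tup1* (log2 fold change 4.11 ± 0.33 SE, adjusted p = 3.9e-05, 26.3% repeated). The glucokinase *GLK1* (log2 fold change 2.2 ± 0.38 SE, adjusted p = 0.00365, called in 3 of the 6 leave-one-out fits, adjusted p up to 0.0176), the enolase *ENO1* (log2 fold change 2.04 ± 0.24 SE, adjusted p = 3.9e-04, over 10% repeated) and the pyruvate decarboxylases *PDC6* (log2 fold change 2.94 ± 0.19 SE, adjusted p = 9.1e-06) and *PDC5* (log2 fold change 1.96 ± 0.13 SE, adjusted p = 1.2e-05) were the others. The median of the list was 0.12. Of 15 alcohol and aldehyde dehydrogenase genes, 4 of which were upregulated without wt 3, *ALD4* (log2 fold change 2.41 ± 0.48 SE, adjusted p = 0.00752) and *ALD3* (log2 fold change 1.88 ± 0.36 SE, adjusted p = 0.00593, over 10% repeated) rose, each lost in at least 4 of the 6 leave-one-out fits. In the same list *ALD5*, a mitochondrial aldehyde dehydrogenase, fell from 213, 188 and 245 CPM to 61.8, 63.4 and 60.8 CPM (log2 fold change -1.8 ± 0.12 SE, adjusted p = 1.0e-05).

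Of 29 nuclear genes of the respiratory chain 29 had a log2 fold change above 0 (0.26 to 1.21, median 0.64), but only 3 passed the limits, led by *NDE1*, the external NADH dehydrogenase (log2 fold change 1.21 ± 0.12 SE, adjusted p = 1.2e-04). Of 17 TCA cycle genes 1 passed, *LSC2*, a subunit of succinyl-CoA ligase (log2 fold change 1.56 ± 0.24 SE, adjusted p = 0.0021, called in 3 of the 6 leave-one-out fits, adjusted p up to 0.0114), and the median of the list was 0.63. Without wt 3, whose levels of these genes were nearer to *tup1*, 10 respiratory and 7 TCA cycle genes were called. Aconitase, *ACO1*, shows the pattern, with 225, 244 and 705 CPM in wt and 1138, 1532 and 1500 CPM in *tup1* (log2 fold change 1.83 ± 0.42 SE, adjusted p = 0.0135, and 2.58 with an adjusted p of 5.4e-06 without wt 3). Of 3 mitochondrially encoded RNAs 1 was upregulated, *RPM1*, the RNA subunit of mitochondrial RNase P, with 6.2, 7.51 and 7.16 CPM in wt and 20, 30.6 and 36.1 CPM in *tup1* (log2 fold change 2.06 ± 0.22 SE, adjusted p = 2.0e-04). 15S_RRNA varied within *tup1*, with 24.7, 27.3 and 28.8 CPM in wt and 227, 41.2 and 74.8 CPM in *tup1*, and did not pass the test (log2 fold change 2.08 ± 0.54 SE, adjusted p = 0.024).

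Glycogen and trehalose, the storage carbohydrates, had 6 of 17 genes upregulated, 0 downregulated and 17 of 17 values above 0 (median 1.44), and 11 genes were called without wt 3. *GPH1*, glycogen phosphorylase, had 24.9, 22.3 and 75.9 CPM in wt and 531, 842 and 784 CPM in *tup1* (log2 fold change 4.13 ± 0.49 SE, adjusted p = 4.0e-04). The debranching enzyme *GDB1* (log2 fold change 3.1 ± 0.2 SE, adjusted p = 9.1e-06), the branching enzyme *GLC3* (log2 fold change 2.29 ± 0.39 SE, adjusted p = 0.00322, called in 3 of the 6 leave-one-out fits, adjusted p up to 0.0148) and *SGA1*, a glucoamylase made in sporulation (log2 fold change 5.4 ± 0.16 SE, adjusted p = 1.3e-07), also rose. Genes of glycerol metabolism gave 4 of 11 upregulated. *DAK2*, dihydroxyacetone kinase, had 5.11, 5.74 and 4.41 CPM in wt and 187, 168 and 202 CPM in *tup1* (log2 fold change 5.19 ± 0.14 SE, adjusted p = 1.1e-07), and the glycerol-forming enzymes *GPP2* (log2 fold change 3.06 ± 0.38 SE, adjusted p = 5.6e-04) and *GPD1* (log2 fold change 1.69 ± 0.28 SE, adjusted p = 0.00287, called in 3 of the 6 leave-one-out fits, adjusted p up to 0.0146) rose less. Of 4 aquaporin and aquaglyceroporin genes, a list made after values were seen, 3 were upregulated, and *AQY1* went from 2.75, 2.52 and 2.02 CPM to 94.5, 91.8 and 72.5 CPM (log2 fold change 5.15 ± 0.17 SE, adjusted p = 2.1e-07).

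**Figure D2:**
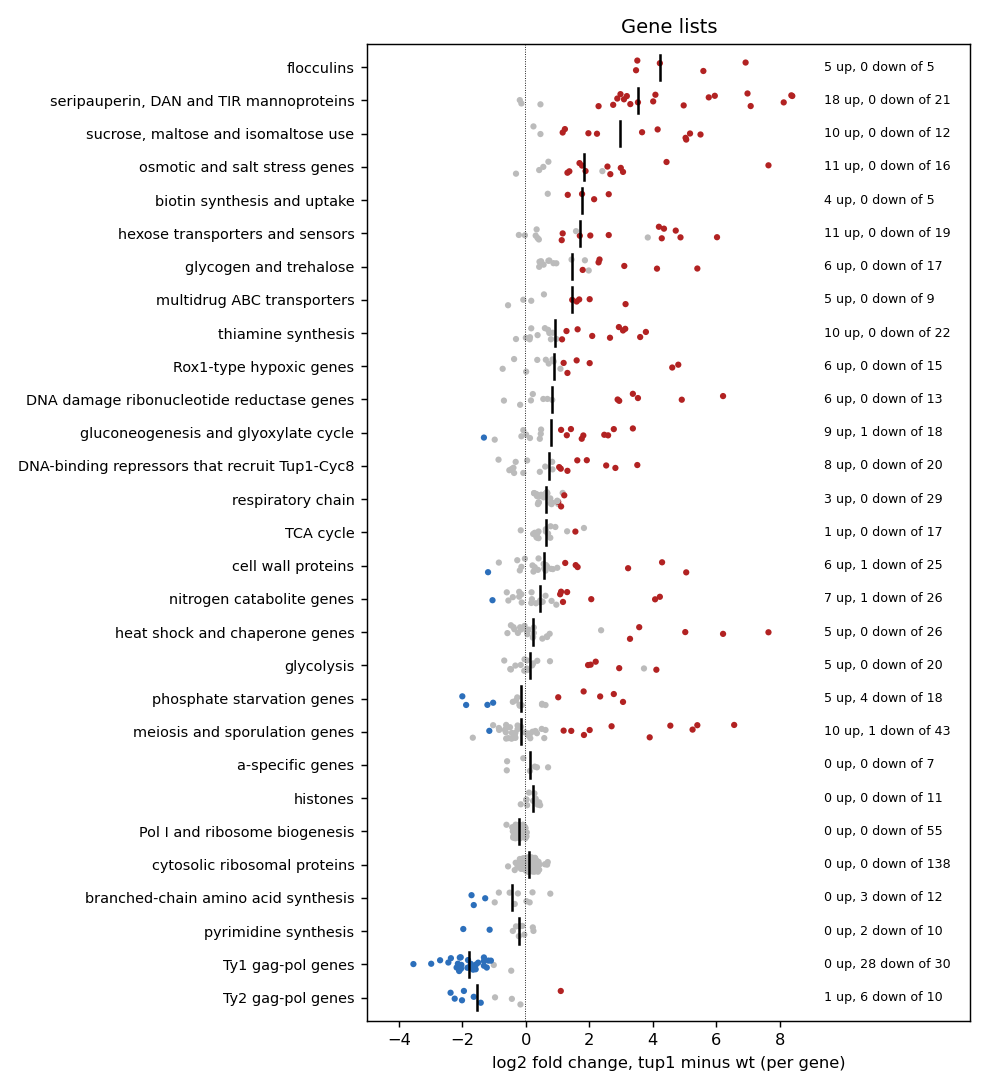
Log2 fold change (*tup1* minus wt) of each tested member of 29 gene lists, with the median of each list as a black bar, the median of all tested genes as a dotted line, and called genes in red (up) or blue (down). Flocculins and mannoproteins reach the highest values, ribosomal lists stay near 0, and the Ty1 and Ty2 lists lie mostly below it.

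Of 16 osmotic and salt stress genes 11 were upregulated and 0 downregulated (median 1.82). *HSP12*, a small membrane-binding heat shock protein, had 1.34, 2.71 and 9.12 CPM in wt and 806, 858 and 987 CPM in *tup1* (log2 fold change 7.64 ± 0.62 SE, adjusted p = 3.6e-05). The wt 3 value was the highest of wt, and every *tup1* value was 806 CPM or more. *CTT1*, cytosolic catalase, had 12.2, 8.96 and 14.1 CPM in wt and 172, 282 and 306 CPM in *tup1* (log2 fold change 4.43 ± 0.27 SE, adjusted p = 5.9e-06), and *HOR7* (log2 fold change 2.99 ± 0.4 SE, adjusted p = 7.7e-04) and *HAL1* (log2 fold change 2.66 ± 0.14 SE, adjusted p = 3.1e-06) rose less. Of 26 heat shock and chaperone genes 5 were upregulated (median 0.23, and 0.58 without wt 3), namely *HSP12*, *HSP26*, *HSP31*, *HSP33* and *HSP32*. *HSP26* had 3.77, 4.67 and 14.5 CPM in wt and 530, 481 and 688 CPM in *tup1* (log2 fold change 6.21 ± 0.51 SE, adjusted p = 4.0e-05), again with wt 3 the highest in wt, and *HSP31* had 15, 15.5 and 16.4 CPM and 473, 476 and 569 CPM (log2 fold change 5.02 ± 0.13 SE, adjusted p = 1.1e-07). *HSP32* and *HSP33* are close copies of *HSP31*, with at most 3.61 CPM in a library (*HSP33*) and 2.77 CPM (*HSP32*), and *HSP32* was called in 3 of the 6 leave-one-out fits (adjusted p up to 0.0257). *MSN4*, the stress activator that binds AGGGG, went from 44.9, 31.7 and 70.6 CPM to 392, 375 and 346 CPM (log2 fold change 2.92 ± 0.27 SE, adjusted p = 7.8e-05).

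Antioxidant enzymes were called in both directions, 4 up and 2 down of 23 (median 0.42). Besides *CTT1*, the mitochondrial peroxiredoxin *PRX1* (log2 fold change 2.6 ± 0.25 SE, adjusted p = 1.2e-04), *TSA2* (log2 fold change 1.07 ± 0.16 SE, adjusted p = 0.00134, called in 5 of the 6 leave-one-out fits) and the glutathione reductase *GLR1* (log2 fold change 1.05 ± 0.1 SE, adjusted p = 1.1e-04, called in 5 of the 6) rose. The glutathione peroxidase *GPX2* (log2 fold change -1.16 ± 0.15 SE, adjusted p = 7.2e-04) and *GSH1*, which starts glutathione synthesis, fell, the latter in 1 of the 6 leave-one-out fits. Of 5 aryl-alcohol dehydrogenase genes *AAD10* was called (log2 fold change 1.51 ± 0.17 SE, adjusted p = 3.3e-04), and of 11 *COS* genes *COS4* (log2 fold change 3.33 ± 0.52 SE, adjusted p = 0.00199, 82.3% repeated, at most 2.23 CPM in a library). Among 9 multidrug ABC transporters, a list made after values were seen, 5 were upregulated. *PDR15* had 74.6, 71.3 and 86.2 CPM in wt and 622, 730 and 693 CPM in *tup1* (log2 fold change 3.14 ± 0.13 SE, adjusted p = 5.1e-07).

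The DNA damage genes of ribonucleotide reductase, the enzyme that makes deoxyribonucleotides, were de-repressed without a damaging agent. In the list of 13 genes 6 were upregulated and 0 downregulated (median 0.83). *RNR3*, its damage-induced large subunit, had 11, 12.7 and 10.3 CPM in wt and 819, 827 and 882 CPM in *tup1* (log2 fold change 6.21 ± 0.14 SE, adjusted p = 9.7e-08). The small subunits rose from higher levels, *RNR2* from 419, 427 and 448 CPM to 4073, 4425 and 4912 CPM (log2 fold change 3.37 ± 0.12 SE, adjusted p = 2.2e-07) and *RNR4* from 620, 615 and 612 CPM to 4833, 4965 and 4412 CPM (log2 fold change 2.94 ± 0.1 SE, adjusted p = 2.3e-07). *HUG1*, an inhibitor of the enzyme, had 5.31, 4.98 and 4.04 CPM in wt and 137, 137 and 156 CPM in *tup1* (log2 fold change 4.91 ± 0.14 SE, adjusted p = 1.2e-07). Spread within a strain was small for these 4 genes, and the other called members were the stress genes *DDR2* (log2 fold change 3.53 ± 0.52 SE, adjusted p = 0.00151) and *DDR48*, which is over 10% repeated.

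Of the 15 hypoxic genes of the Rox1p type 6 were upregulated and 0 downregulated (median 0.88). *ANB1*, the hypoxic form of eIF5A, had 22.1, 24.9 and 11.1 CPM in wt and 448, 440 and 537 CPM in *tup1* (log2 fold change 4.61 ± 0.29 SE, adjusted p = 8.1e-06), and its promoter stretch is shown above. *CYC7*, the hypoxic form of cytochrome c, had 2.3, 1.32 and 3.74 CPM in wt and 61.8, 62.4 and 82.6 CPM in *tup1* (log2 fold change 4.8 ± 0.29 SE, adjusted p = 6.2e-06). The sterol importers *PDR11* (log2 fold change 2.01 ± 0.11 SE, adjusted p = 3.3e-06) and *AUS1* (log2 fold change 1.6 ± 0.11 SE, adjusted p = 1.3e-05) and their regulator *SUT1* (log2 fold change 1.31 ± 0.15 SE, adjusted p = 3.2e-04) rose by smaller amounts. In the ergosterol pathway 2 of 26 genes were upregulated, *ERG1*, squalene epoxidase (log2 fold change 1.23 ± 0.15 SE, adjusted p = 4.4e-04), and *ERG28* (log2 fold change 1.02 ± 0.14 SE, adjusted p = 9.0e-04, called in 4 of the 6 leave-one-out fits), and the median was -0.10.

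Genes of meiosis and spore formation, normally silent in haploid cells, were split. Of 43 tested, 10 were upregulated and 1 was downregulated (median -0.15), and without wt 3 the downregulated genes were 4. *DIT1* and *DIT2*, adjacent genes that make the dityrosine of the spore wall, were among the largest rises: *DIT1* had 6.9, 6.81 and 6.92 CPM in wt and 695, 672 and 589 CPM in *tup1* (log2 fold change 6.56 ± 0.13 SE, adjusted p = 9.1e-08), and *DIT2* had 3, 4.48 and 2.76 CPM and 136, 138 and 117 CPM (log2 fold change 5.25 ± 0.19 SE, adjusted p = 2.7e-07). The spore wall gene *SPS100* (log2 fold change 4.55 ± 0.19 SE, adjusted p = 5.5e-07) and *SPO20*, a SNARE of prospore membranes (log2 fold change 3.9 ± 0.19 SE, adjusted p = 1.4e-06), rose, as did *IME1*, the master regulator of meiosis, by 2.70 on the log2 scale. *MSH5*, which acts in meiotic recombination, was the member that fell, by 1.15.

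Of 21 haploid and pheromone response genes 1 was called, the *AGA1* fall given above, while without wt 3 none fell and 1 rose. Of 4 tested alpha-specific genes 1 was called. That was *STE3*, the **a**-factor receptor of alpha cells, with 2.17, 2.02 and 3.55 CPM in wt and 0.548, 0.812 and 0.481 CPM in *tup1* (log2 fold change -2.07 ± 0.36 SE, adjusted p = 0.00397), 32 to 58 reads per wt library, and it kept its call in 3 of the 6 leave-one-out fits. *MFA2*, an **a**-factor gene, had 455, 479 and 527 CPM in wt and 687, 850 and 844 CPM in *tup1* (log2 fold change 0.7 ± 0.12 SE, adjusted p = 0.00355), under the fold limit.

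In the thiamine list 10 of 22 were upregulated and 0 downregulated (median 0.91), with 8 members repeated. *THI7*, the thiamine transporter, had 68.9, 77.8 and 66.8 CPM in wt and 899, 789 and 896 CPM in *tup1* (log2 fold change 3.6 ± 0.12 SE, adjusted p = 2.2e-07). *THI4* (log2 fold change 3.78 ± 0.21 SE, adjusted p = 3.2e-06) and the activator *THI2* (log2 fold change 3.06 ± 0.16 SE, adjusted p = 2.4e-06) rose similarly, *THI4* from under 3 CPM. Of 5 biotin genes 4 were upregulated, and *BIO2*, biotin synthase, went from 40.2, 36.2 and 38.4 CPM to 167, 169 and 172 CPM (log2 fold change 2.15 ± 0.09 SE, adjusted p = 7.9e-07).

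In the list of nitrogen catabolite genes, repressed by good nitrogen sources, 7 of 26 were upregulated and 1 was downregulated (median 0.46). *GAP1*, the general amino acid permease, had 13.7, 12.3 and 13.2 CPM in wt and 191, 246 and 291 CPM in *tup1* (log2 fold change 4.22 ± 0.17 SE, adjusted p = 6.0e-07). *PUT4*, the proline permease, had 3.58, 3.41 and 2.57 CPM in wt and 50.2, 57.6 and 53.3 CPM in *tup1* (log2 fold change 4.07 ± 0.14 SE, adjusted p = 2.4e-07). The urea transporter *DUR3* (log2 fold change 2.06 ± 0.13 SE, adjusted p = 7.9e-06) and the glutamate dehydrogenases *GDH3* (log2 fold change 1.3 ± 0.13 SE, adjusted p = 1.3e-04) and *GDH1* (log2 fold change 1.17 ± 0.17 SE, adjusted p = 0.00132) rose less, and the ammonium permease *MEP3* fell by 1.05. Among 22 amino acid and peptide permeases 3 were upregulated, *PUT4*, *ALP1* (log2 fold change 4.11 ± 0.16 SE, adjusted p = 4.7e-07) and the peptide transporter *PTR2* (log2 fold change 1.54 ± 0.31 SE, adjusted p = 0.00738, called in 1 of the 6 leave-one-out fits, adjusted p up to 0.0312), and *DIP5*, which carries acidic amino acids, fell from 92.2, 93.5 and 133 CPM to 33.3, 37.3 and 43.8 CPM (log2 fold change -1.48 ± 0.17 SE, adjusted p = 3.7e-04). Without wt 3, 2 permease genes were downregulated.

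Of 26 iron uptake genes 2 were upregulated and 0 downregulated (median -0.20), the ferric reductase *FRE4* (log2 fold change 2.86 ± 0.35 SE, adjusted p = 4.6e-04) and *ARN1* (log2 fold change 1.47 ± 0.24 SE, adjusted p = 0.00252, called in 4 of the 6 leave-one-out fits, adjusted p up to 0.0148). Without wt 3, which was low for several of these genes, 3 iron genes were upregulated and 3 downregulated. *FIT2*, a wall mannoprotein that holds siderophore iron, had 503, 534 and 103 CPM in wt and 1684, 1087 and 853 CPM in *tup1*. The strains did not overlap, but the low wt 3 value widened the error (log2 fold change 1.67 ± 0.54 SE, adjusted p = 0.0547), and without wt 3 the change was 1.24 with an adjusted p of 0.00671. Of 10 zinc genes only *ZPS1* was called, a wall protein induced by zinc shortage, with 17.8, 18.5 and 10.4 CPM in wt and 214, 232 and 239 CPM in *tup1* (log2 fold change 3.88 ± 0.21 SE, adjusted p = 3.2e-06), and without wt 3 another 2 were downregulated. Of 18 phosphate starvation genes 5 were upregulated and 4 downregulated (median -0.16). *PHO5*, the repressible acid phosphatase, fell from 657, 690 and 426 CPM to 123, 158 and 161 CPM (log2 fold change -2.0 ± 0.2 SE, adjusted p = 1.5e-04, 19.8% repeated), and *PHM6* fell from 49.1, 44.8 and 34.4 CPM to 12.8, 11.2 and 11 CPM (log2 fold change -1.88 ± 0.15 SE, adjusted p = 3.8e-05). *GIT1*, a carrier of glycerophosphoinositol (log2 fold change 2.77 ± 0.18 SE, adjusted p = 1.0e-05), and *PHM8* (log2 fold change 2.34 ± 0.16 SE, adjusted p = 1.5e-05) rose. *PHO3*, the constitutive acid phosphatase, had 662, 651 and 532 CPM in wt and 1386, 1135 and 1211 CPM in *tup1* and lay just inside the fold limit (log2 fold change 1.02 ± 0.13 SE, adjusted p = 6.1e-04, called in 4 of the 6 leave-one-out fits, adjusted p up to 0.00286, 15.4% repeated).

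Of 20 tested genes for DNA-binding repressors that recruit the complex 8 were upregulated and 0 downregulated (median 0.72). *XBP1*, a stress-induced repressor, had 9.78, 9.21 and 13.5 CPM in wt and 130, 144 and 96 CPM in *tup1* (log2 fold change 3.51 ± 0.21 SE, adjusted p = 4.8e-06). *YAP6* (log2 fold change 2.82 ± 0.13 SE, adjusted p = 1.0e-06), *CIN5* (log2 fold change 2.53 ± 0.21 SE, adjusted p = 4.1e-05), *NRG1* (log2 fold change 1.92 ± 0.17 SE, adjusted p = 6.7e-05) and *PHD1* (log2 fold change 1.62 ± 0.17 SE, adjusted p = 1.6e-04) followed. Of 16 genes for cofactors and histone deacetylases none was called by edgeR at these limits, with *SIN3*, a scaffold of deacetylase complexes, at -0.59 ± 0.11 (SE, adjusted p = 0.00444) and *SNF2*, the ATPase of the SWI/SNF remodeller, at -0.56 ± 0.09 (SE, adjusted p = 0.00217), both past the p limit and under the fold limit. Without a fold limit 10.5% of all tested genes were higher and 3.73% lower in *tup1*.

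**Figure D3:**
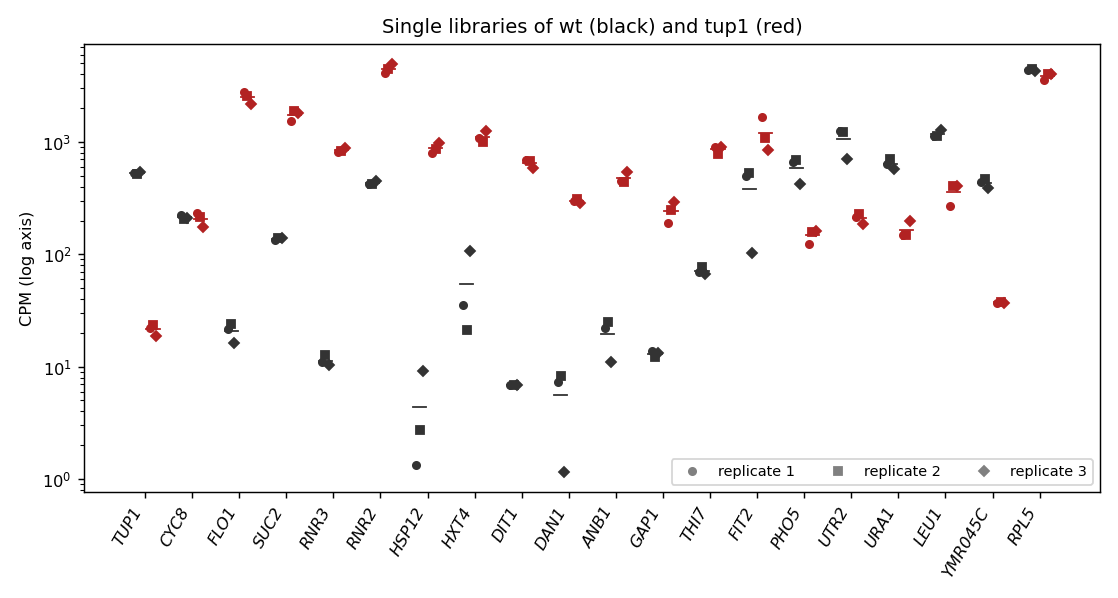
CPM on a log axis of 20 genes in each of the 3 wt (black) and 3 *tup1* (red) libraries, with the symbol giving the replicate and the bar the mean. The strains separate for most genes shown, *CYC8* overlaps, and wt 3 (black diamond) lies apart from wt 1 and wt 2 for *HSP12*, *HXT4*, *DAN1* and *FIT2*.

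The downregulated genes were fewer and fell less. Of the 85, 35 were *gag-pol* genes of Ty retrotransposons, mobile elements that copy themselves through RNA. Of the 30 Ty1 *gag-pol* genes 28 fell and none rose (median -1.79), and of the 10 Ty2 genes 6 fell and 1 rose (median -1.53). The clearest copy was YMR045C (Ty1), with 444, 465 and 393 CPM in wt and 37.2, 37.9 and 37.1 CPM in *tup1* (log2 fold change -3.54 ± 0.11 SE, adjusted p = 1.7e-07). Each of the 40 genes is over 10% repeated (94.2% for YMR045C), so the count of 28 is not one of independent genes. How reads that match several copies were counted is not given in the sources used here, and 34 of the 85 downregulated genes overlap a gene on the same strand. The summed level of the Ty1 genes was 3083, 3231 and 3068 CPM in wt and 842, 965 and 882 CPM in *tup1*, without overlap. The Ty2 sum was 376, 396 and 330 CPM in wt and 194, 190 and 170 CPM in *tup1*. The 2 Ty3 genes were at -0.37 and -0.47 and the 3 Ty4 genes between 0.04 and 0.98, with none of them called. Of 7 tested helicase genes of the subtelomeric Y' elements 1 fell (YPR204W, log2 fold change -1.4 ± 0.16 SE, adjusted p = 3.0e-04), and each of them is repeated as well.

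Outside repeated sequence 42 genes were downregulated. The largest fall after *TUP1* was that of YHR022C-A, an uncharacterized gene with 84 reads in the wt libraries together and 3 in *tup1* (ratio 25.9, 95% counting interval 8.56 to 128). *UTR2*, a chitin transglycosylase of the wall, fell from 1253, 1230 and 704 CPM to 214, 227 and 187 CPM (log2 fold change -2.34 ± 0.22 SE, adjusted p = 9.9e-05). *RRT5* (log2 fold change -2.82 ± 0.46 SE, adjusted p = 0.00257), YCR022C (log2 fold change -2.31 ± 0.44 SE, adjusted p = 0.00588) and YIL163C (log2 fold change -1.87 ± 0.34 SE, adjusted p = 0.00425) had at most 2.69 CPM in any library, and each kept its call in 2 of the 6 leave-one-out fits. *RDT1* (log2 fold change -1.84 ± 0.28 SE, adjusted p = 0.00163) and YDR344C (log2 fold change -1.78 ± 0.16 SE, adjusted p = 6.1e-05) were also among the 12 largest.

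Pyrimidine, branched-chain amino acid and guanine nucleotide synthesis are lists made after values were seen. *URA1*, dihydroorotate dehydrogenase of pyrimidine synthesis, fell from 636, 707 and 580 CPM to 148, 148 and 196 CPM (log2 fold change -1.97 ± 0.15 SE, adjusted p = 2.3e-05), and *URA4* from 215, 210 and 202 CPM to 95.6, 95.5 and 93.8 CPM (log2 fold change -1.14 ± 0.09 SE, adjusted p = 2.7e-05). They were 2 of 10 genes of that pathway (median -0.21). Branched-chain amino acid synthesis gave 3 of 12 downregulated and 0 upregulated (median -0.43): *LEU1*, isopropylmalate isomerase, fell from 1126, 1138 and 1285 CPM to 269, 408 and 405 CPM (log2 fold change -1.71 ± 0.17 SE, adjusted p = 1.4e-04), the carrier *OAC1* from 78, 89.6 and 103 CPM to 25.7, 27.3 and 33.5 CPM (log2 fold change -1.64 ± 0.15 SE, adjusted p = 6.4e-05), and the mitochondrial transaminase *BAT1* from 954, 931 and 880 CPM to 337, 388 and 413 CPM (log2 fold change -1.28 ± 0.11 SE, adjusted p = 6.1e-05). Without wt 3, 4 genes of this list were downregulated and 1 was upregulated. *SAM2*, S-adenosylmethionine synthetase, fell (log2 fold change -1.7 ± 0.17 SE, adjusted p = 1.3e-04) in a list of 23 sulfur and methionine genes with 1 up, *MET28* (log2 fold change 1.6 ± 0.2 SE, adjusted p = 6.1e-04), and 1 down (median -0.30). Without wt 3, 2 genes of that list were upregulated. *MET6*, methionine synthase, overlapped between the strains, with 684, 684 and 981 CPM in wt and 615, 750 and 806 CPM in *tup1* (log2 fold change -0.11 ± 0.17 SE, adjusted p = 0.665). *IMD2*, IMP dehydrogenase, fell from 86.1, 93.3 and 53 CPM to 5.79, 9.06 and 11.7 CPM (log2 fold change -3.11 ± 0.29 SE, adjusted p = 8.5e-05) but is 49.8% repeated, and its near copy *IMD3* was at -0.20 ± 0.11 (SE). Of 15 arginine genes only *ARG3* was called (log2 fold change 1.61 ± 0.19 SE, adjusted p = 3.6e-04). *SUR2*, sphinganine hydroxylase, had 202, 212 and 153 CPM in wt and 97.7, 102 and 118 CPM in *tup1*, which do not overlap, and fell short of the fold limit (log2 fold change -0.83 ± 0.14 SE, adjusted p = 0.00335).

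Of 138 cytosolic ribosomal protein genes and 55 genes of RNA polymerase I and ribosome biogenesis, edgeR called 0 at these limits. The median of the first list was 0.10, and it became -0.03 when libraries were scaled by their size alone, which moved the median of all genes from -0.03 to -0.16. Of the second list 53 of 55 values were below 0 (median -0.22). Its summed level was 17399, 18193 and 11509 CPM in wt and 14072, 12454 and 13619 CPM in *tup1*, so that wt 3 lay below all 3 *tup1* libraries. The 11 histone genes (median 0.23) and 76 snoRNA and snRNA genes (median 0.13) had 0 calls each as well, but without wt 3 edgeR called 3 of the latter downregulated.

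The upregulated genes were common near chromosome ends. Of the 430 with a position, 85 (19.8%) lay within 25 kb of an end, against 4.44% of the 5861 tested genes with a position and 9 of 84 downregulated genes (10.7%). In the bins from 5 to 10 kb and from 10 to 15 kb 40.8% and 42.1% of the tested genes were upregulated, in the bin from 50 to 100 kb 4.53%. Families with repeated sequence are concentrated at the ends, and without genes over 10% repeated the share within 25 kb was 9.24% of upregulated and 2.78% of tested genes. The intergenic gap upstream of the upregulated genes had a median of 753 bases, against 422 for all tested and 600 for the downregulated protein-coding genes.

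**Figure D4:**
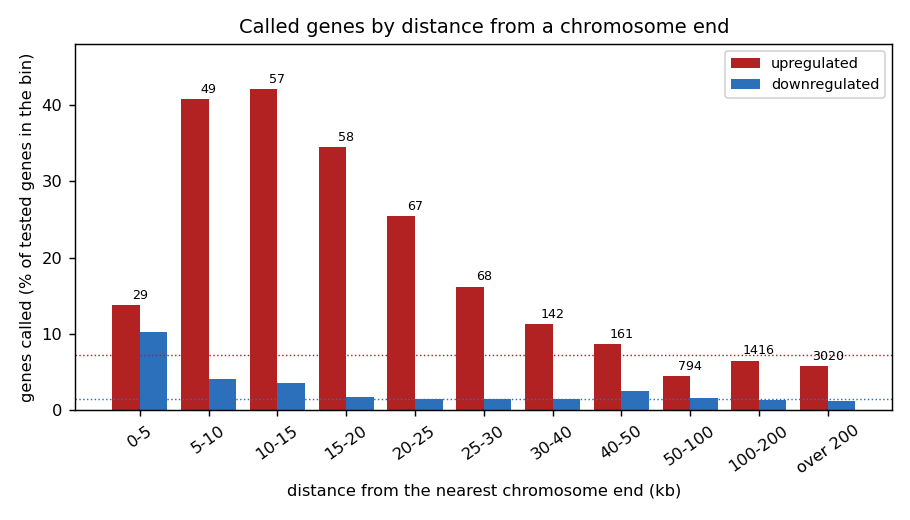
Share of tested genes that were upregulated (red) or downregulated (blue) in *tup1*, by distance from the nearest chromosome end in kb, with the number of tested genes above each pair of bars and the shares over all tested genes as dotted lines. Upregulated shares exceed 25% in each bin between 5 and 25 kb and fall below 7% beyond 50 kb.

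The *tup1* strain was then compared with the 2 other deletion strains in a fit of all 12 libraries, to see which transcripts differed from both. These contrasts share the *tup1* libraries. Of 5995 genes tested 13 (0.217%) were higher in *tup1* than in both *cyc8* and *tup1 cyc8*, and 160 (2.67%) were lower than in both. None of the 13 was upregulated against wt and 3 were downregulated. One of them is *CYC8*, labelled as deleted in both other strains. On the scale of this fit it had 208, 189 and 157 CPM in *tup1* and 7.31, 8.85 and 9.33 CPM in *cyc8*. In *tup1 cyc8* it still had 79.3, 88.3 and 85 CPM, and the source of these reads was not examined. Among the other 12, 6 belong to the response to phosphate starvation: *PHM6*, *PHO12*, *PHO11*, *VTC3*, *PHO84* and *SPL2*. *PHO84*, the high-affinity phosphate transporter, had 2775, 2598 and 2628 CPM in *tup1*, 447, 602 and 664 CPM in *cyc8*, 898, 1103 and 1207 CPM in *tup1 cyc8*, and 1892, 2093 and 1555 CPM in wt on the scale of this fit. Its log2 difference was 2.22 ± 0.17 (SE, adjusted p = 3.2e-06) from *cyc8* and 1.32 ± 0.17 (SE, adjusted p = 1.8e-04) from *tup1 cyc8*. *PHM6* differed by 2.87 ± 0.19 (SE, adjusted p = 7.7e-07) and 2.32 ± 0.18 (SE, adjusted p = 2.8e-06), from a *tup1* level below that of wt. *ARO9*, an aromatic aminotransferase, *BAR1*, the protease that cleaves alpha factor, and *DSE1*, a daughter-cell gene, were also higher in *tup1* than in both, by at least 2.16, 1.81 and 1.24. On the scale of this fit their means were 71.2, 110 and 269 CPM in *tup1* and 42.6, 164 and 139 CPM in wt, with *ARO9* at 78.8 CPM in wt 3. The *tup1* means of *PHO12*, *VTC3* and *SPL2* (244, 364 and 53.8 CPM) were below those of wt (494, 479 and 58.2 CPM), and that of *PHO11* was above it. *PHO12* kept its fall against wt in 1 of the 6 leave-one-out fits (adjusted p up to 0.0272). *PHO11* and *PHO12* are near copies of each other and over 90% repeated. *HXT10*, picked after its values were seen, is an upregulated gene that lay high in both contrasts, with 2.64 ± 0.43 (SE, adjusted p = 8.9e-04) from *cyc8* and 1.4 ± 0.4 (SE, adjusted p = 0.0196) from *tup1 cyc8*, past the p limit in the former only. The count of 13 became 40 when libraries were scaled by size alone.

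Of the 431 upregulated genes 65 (15.1%) were lower in *tup1* than in both other mutants, and 82 were lower than in *cyc8*, as were 4.65% of all genes tested, while 19 were higher, as were 1.43% of all. Against *tup1 cyc8* 139 were lower, beside 4.95% of all, and 1 was higher. *SUC2* had 1363, 1665 and 1628 CPM in *tup1*, 6115, 4628 and 5001 CPM in *cyc8* and 10202, 8285 and 9898 CPM in *tup1 cyc8*. The differences were -1.76 ± 0.15 (SE, adjusted p = 5.1e-06) and -2.61 ± 0.15 (SE, adjusted p = 4.5e-07). *FLO1* was higher in *tup1* than in *cyc8* (1.12 ± 0.24 SE, adjusted p = 0.00478), where replicate 1 had 606 CPM against 1254 and 1225 CPM in the others. Its difference from *tup1 cyc8* was -0.33 ± 0.24 (SE, adjusted p = 0.319). The flocculin gene *FLO11*, picked after its values were seen, was lower in *tup1* than in both. Its differences were -2.78 ± 0.29 (SE, adjusted p = 3.9e-05) from *cyc8* and -5.6 ± 0.33 (SE, adjusted p = 4.7e-07) from *tup1 cyc8*. For *RNR3* the differences were -0.47 ± 0.23 (SE, adjusted p = 0.138) and -0.38 ± 0.23 (SE, adjusted p = 0.233), neither past the limits.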

How the data were processed

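RNA from 3 biological replicate cultures of each of 4 strains was sequenced. Per the submitters' processing notes and methods, reads were trimmed (Trimmomatic 0.36), aligned (STAR 2.5.2b) and counted per gene (Subread 1.5.2). The deposited values used here are the authors' raw counts per gene, not normalized. The normalized tables of the authors were not used. The row without a gene name (0.0647% to 0.34% of the counts of a library) was left out.

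The wt and *tup1* libraries were compared with edgeR 4.0.16 (R 4.3.3), with TMM scaling, its filter on low counts and the quasi-likelihood test. Genes were called at a log2 fold change of at least 1 or at most -1 with p-values adjusted over all tested genes (Benjamini-Hochberg, limit 0.01). The SE was taken as the ratio of the log2 fold change to the root of the F statistic. P-values measure the spread between these cultures. The comparison with the other mutants used all 12 libraries. Scripts were tested on simulated data. A gene counts as repeated where over 10% of its 31-base words occur elsewhere in the R64 genome. Sequences and positions are those of RefSeq, R64, and 6167 of 6400 names matched.

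The members, gene lists and tests were chosen with earlier results of these data known, and 5 lists after values were seen. Genes were named by rule: *TUP1*, *CYC8*, the strain markers and 7 genes of interest to the study; the 12 largest changes per direction without overlap or repeats; up to 5 called members per list, or the 2 most expressed where fewer than 2 were called; and up to 12 genes higher in *tup1* than in both mutants. *CIT2*, *DAN4*, *DDR48*, *GSH1*, *HSP32*, *HXT7*, *HXT13*, *IME1*, *MEP3*, *MSH5*, *MSN4*, *TIR1*, *TIR3*, *TIR4*, the genes given for wt 3 and those of the last section's other observations were added after their values were seen. DESeq2 1.42.0, other scalings and filters, other limits, a replicate block and leaving out each library were tried as alternatives.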

Additional observations from a re-analysis of the deposited data

How the results depend on the processing

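The 431 upregulated and 85 downregulated genes became 260 and 36 when edgeR tested against a 2-fold change (glmTreat), and 622 and 221 without a fold limit. Without genes over 10% repeated 358 and 42 were left. DESeq2 gave 468 and 87, and library size as the only scaling 396 and 103. Leaving out 1 library gave 364 to 515 up and 67 to 95 down, with the 515 and the 95 both found without wt 3. Leaving out any other single library gave 364 to 402 up and 67 to 73 down. In each of these 6 fits 348 up and 57 down genes were called. Without wt 3, 426 of the 431 and 77 of the 85 genes kept their calls. The 13 genes higher in *tup1* than in both other mutants became 40 with library size only, 82 at a log2 difference of at least 0.5, and 12 to 16 without 1 library. The share of upregulated genes near chromosome ends (19.8% within 25 kb) was 5.58% within 10 kb and 29.3% within 50 kb. With library size only the medians of peroxisomal fatty acid oxidation (0.05), *COS* (0.01) and arginine genes (0.06) became -0.07, -0.11 and -0.05. Of 3499 alternative values for 210 named genes 157 lost and 22 gained a call, and 0 changed direction. The cause of these shifts was not tested, apart from the smaller number of genes or wider limits that some settings set by construction.

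With the replicate number as a block 438 genes were up, 78 down and 13 higher than in both other mutants. The deviations of samples of the same number correlated at 0.251, -0.111 and 0.232, and those of samples of different number at -0.346 to 0.155. So few pairs cannot decide whether samples of the same number share more than the number.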

Other observations

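Outside the lists, 264 further genes were upregulated, and the genes named here were chosen after their values were seen. *DSF1*, a mannitol dehydrogenase, had 1.98, 1.14 and 1.65 CPM in wt and 173, 212 and 213 CPM in *tup1* (log2 fold change 6.96 ± 0.2 SE, adjusted p = 1.2e-07), and *MAN2*, a near copy, rose as well (log2 fold change 5.09 ± 0.16 SE, adjusted p = 1.7e-07). The sorbitol dehydrogenases *SOR1* (log2 fold change 2.43 ± 0.19 SE, adjusted p = 3.2e-05) and *SOR2* (log2 fold change 2.65 ± 0.21 SE, adjusted p = 3.2e-05) are copies of each other. *FDH1*, formate dehydrogenase, had 0.448, 0.378 and 0.184 CPM in wt and 27.6, 18.5 and 18.9 CPM in *tup1* (log2 fold change 5.98 ± 0.3 SE, adjusted p = 2.0e-06). Its wt values lay below the filter's level of 0.65 CPM, and the gene is over 10% repeated.

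Single genes outside the lists follow. *RCK1*, a protein kinase of the oxidative stress response, had 4.86, 3.91 and 4.9 CPM in wt and 303, 353 and 156 CPM in *tup1* (log2 fold change 5.89 ± 0.34 SE, adjusted p = 4.2e-06), with *tup1* replicate 3 the lowest of its strain. The kinase gene *PRR2* (log2 fold change 4.37 ± 0.11 SE, adjusted p = 1.1e-07), *GAC1*, a regulatory subunit of protein phosphatase 1 that acts in glycogen synthesis (log2 fold change 4.33 ± 0.19 SE, adjusted p = 9.1e-07), and *GAT4*, a GATA-type zinc finger gene (log2 fold change 5.32 ± 0.16 SE, adjusted p = 1.2e-07), rose as well. *PHM7* had 8.18, 5.8 and 10.7 CPM in wt and 414, 437 and 535 CPM in *tup1* (log2 fold change 5.81 ± 0.24 SE, adjusted p = 6.0e-07). *MPC3*, a subunit of the mitochondrial pyruvate carrier made on non-fermentable carbon, rose too (log2 fold change 4.24 ± 0.4 SE, adjusted p = 9.3e-05). Of 466 tested genes whose product is annotated as an uncharacterized protein, 69 were upregulated and 10 downregulated. YFL019C had 0.511, 0.252 and 0.674 CPM in wt and 30.3, 27.3 and 21.8 CPM in *tup1* (log2 fold change 5.76 ± 0.26 SE, adjusted p = 1.0e-06), and YLR012C had 3 reads in the wt libraries together and 285 in *tup1* (ratio 103, 95% counting interval 34.8 to 501). Each lay below the filter's level of 0.65 CPM in a wt library, so it entered the test through its *tup1* libraries.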
